A study of Arabidopsis thaliana with 3 samples.

Results

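The AP2-like targets of miR172 are 6 genes of Arabidopsis thaliana: AP2 (AT4G36920), TOE1 (AT2G28550, listed in RefSeq as RAP2.7), TOE2 (AT5G60120), TOE3 (AT5G67180), SMZ (AT3G54990) and SNZ (AT2G39250). They were taken by locus identifier from 27444 nuclear protein-coding genes, and each was examined for binding of the SBP-domain transcription factor SPL10. DAP-seq, which sequences the genomic DNA retained by a transcription factor, had been run on leaf material of the ecotype Col-0. The series held 3 samples, namely 2 SPL10 precipitations (IP1 and IP2, here replicates 1 and 2) and 1 input. No genotype other than Col-0, no time and no plant age was labelled. The treatment field of the labels marked the input as such, and no treatment of the plants was labelled. The source and tag of the SPL10 protein are not given in the sources read here. Formaldehyde-fixed, sonicated chromatin was the stated starting material of all samples. This conflicts with the usual form of DAP-seq, which adds a protein made in vitro to purified genomic DNA, so whether the folds reflect binding in vitro or in cells cannot be told from the labels.

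The 6 genes encode transcription factors with a pair of AP2 DNA-binding domains, and their transcripts carry a site for the microRNA miR172. In the ageing pathway of Arabidopsis, miR156 declines as the shoot grows, its SPL targets accumulate, SPL proteins switch on MIR172 genes, and miR172 then lowers the AP2-like proteins. Those proteins delay flowering, and several of them keep leaves in the juvenile state, so SPL factors and AP2-like repressors act at opposite ends of the same route. Whether SPL10 also bound DNA at the AP2-like genes themselves is the question addressed here. The question is not stated in the labels, which describe the experiment as a search for direct SPL10 targets.

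A peak was attributed to a gene when its summit lay in the gene or within 3000 bp of either end. Fold enrichment is the deposited ratio of tags at the summit to the peak caller's background, and a peak was called shared when the lists of both replicates overlapped reciprocally by at least 50%. The lists held 21574 peaks in replicate 1 and 21439 in replicate 2, with a median of 47 and 45 tags at the summit over all listed peaks. Of these, 16697 nuclear peaks were shared. Values in parentheses are exact Poisson intervals (95%) of the tags recovered from the deposited values. They cover counting error only. Nothing in the labels shows that the replicates came from separate plants, so they were treated as 1 sample and the value of each is printed without a standard deviation.

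All 6 genes had at least one shared SPL10 peak within their windows, against 69.7% of all nuclear protein-coding genes. A count of 6 of 6 is therefore not far from the background. With peaks limited to a −log10 q of at least 10 in both replicates, 6 of 6 genes again had a shared peak, against 44.3% of coding genes. With the 5000 peaks of highest fold in each replicate, SMZ, SNZ, TOE3 and TOE2 had one, which is 4 of 6 genes against 26.1%. The windows held 13 peaks in replicate 1 and 10 in replicate 2. Of these, 10 were shared, and the 3 that were not shared were all in replicate 1. Over all nuclear peaks, 77.7% of those in replicate 1 and 78.2% of those in replicate 2 were shared. The 3 unshared peaks are therefore not particular to these genes.

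**Figure D1:**
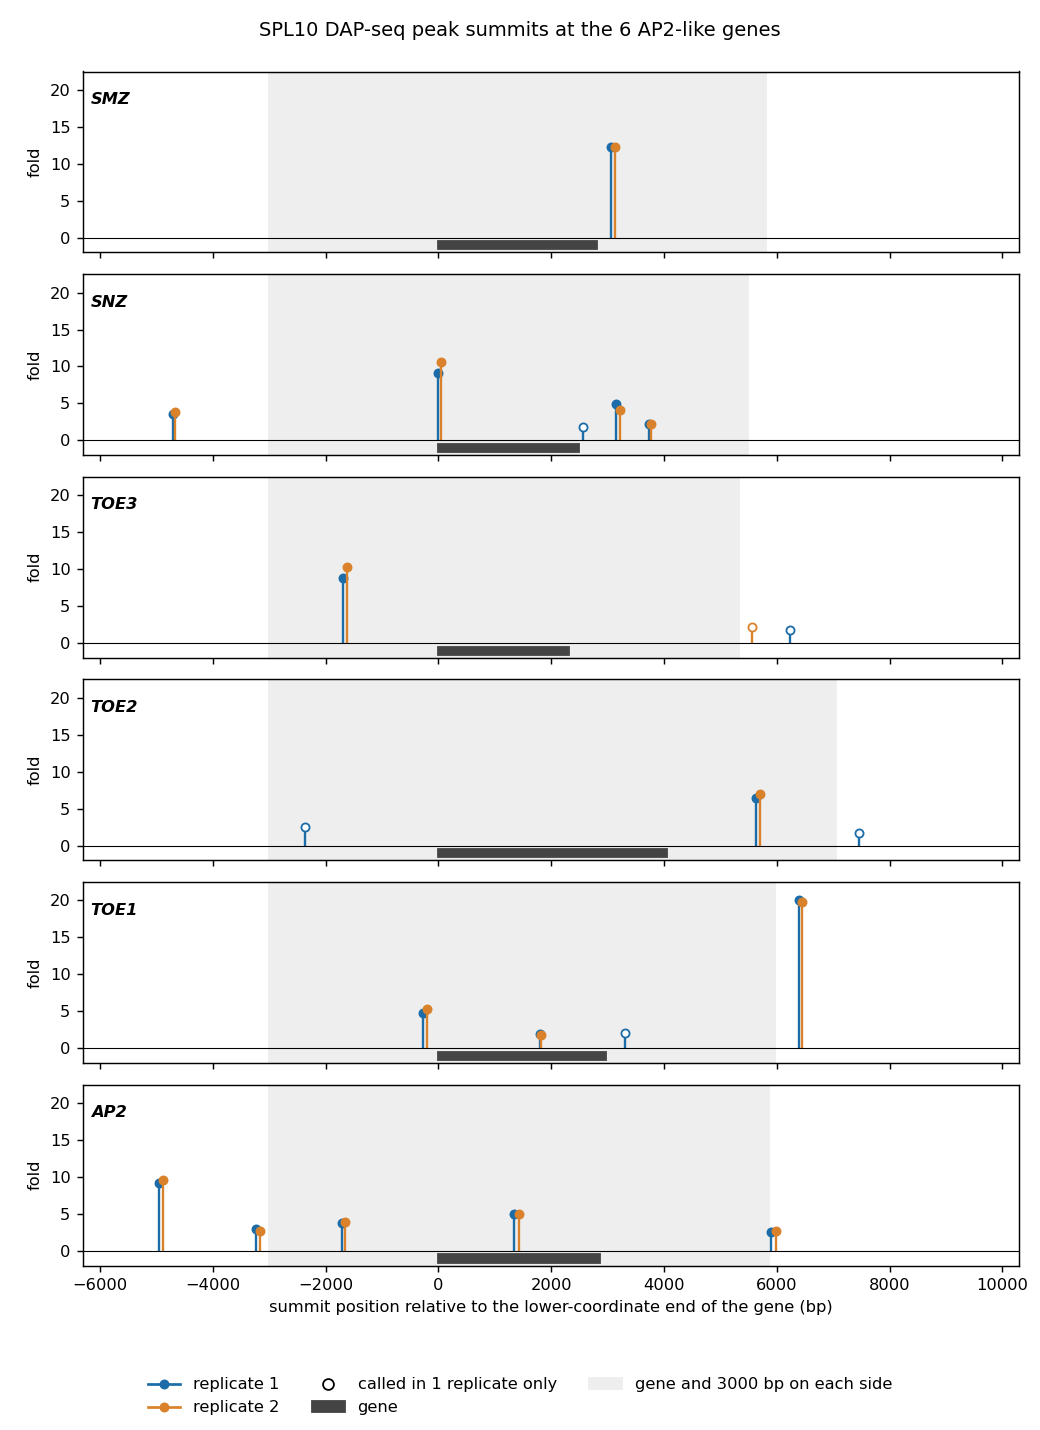
Summits of SPL10 peaks at the 6 AP2-like genes, drawn by position relative to the lower-coordinate end of each gene (x, bp) and fold enrichment (y, ratio), with replicate 1 in blue and replicate 2 in orange, offset by 35 bp to either side for legibility. Dark bars are the genes, grey areas the genes with 3000 bp on each side, and open circles are peaks called in 1 replicate only. SMZ, SNZ and TOE3 have the tallest peaks within the grey areas, and the tallest peak drawn, at 20.1-fold and 19.9-fold, stands just outside the grey area of TOE1.

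SMZ, whose product represses the florigen gene FT, had the strongest shared peak within 3000 bp of any of the 6 genes and no other within its window. A stronger one lay beyond that limit at TOE1, at 20.1-fold and 19.9-fold. In replicate 1 the SMZ peak spanned chromosome 3, 20376614 to 20377010 (TAIR10). Its fold enrichment was 12.3 (10.6 to 14.3, from 173 tags) in the first replicate, and 12.2 (10.4 to 14.3, from 161 tags) in the second. The summits stood 289 and 284 bp past the higher-coordinate end of SMZ, outside any annotated gene, and SMZ was the nearest coding gene. Of all coding genes, 6.18% had a shared peak at least this strong in their window.

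SNZ, the close relative of SMZ, carried 3 shared peaks, the most of the 6 genes, and 11.1% of coding genes had at least that many. The strongest spanned one annotated end of the gene, with replicate 1 limits of 16388474 to 16388974 on chromosome 2. Its summits lay 32 and 18 bp inside the lower-coordinate end. Fold enrichment there was 9.15 (7.64 to 10.9, from 128 tags) in the first replicate, and 10.6 (8.90 to 12.5, from 139 tags) in the second. Another coding gene, AT2G39240, ended 221 bp from the replicate 1 summit. Past the other end of SNZ, at 708 and 707 bp, a shared peak reached 4.90-fold (3.86 to 6.14) and 4.16-fold (3.18 to 5.36). It stood 40 and 41 bp from the neighbouring gene AT2G39260. The weakest shared peak of SNZ, at 2.27-fold and 2.22-fold, lay inside AT2G39260. Replicate 1 alone had a further peak 110 bp past the higher-coordinate end of SNZ, at 1.86-fold (1.23 to 2.70), with a −log10 q of 0.998.

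TOE3, a member of the family with a described role in flower patterning, had a single shared peak of nearly the same strength as that of SNZ. In replicate 1 it covered 26800094 to 26800442 of chromosome 5. Fold enrichment reached 8.79-fold (7.32 to 10.5, from 123 tags) in the first replicate, and 10.3-fold (8.63 to 12.1, from 135 tags) in the second. The summits stood 1664 and 1662 bp off the lower-coordinate end of TOE3, inside another coding gene, AT5G67170. The windows of 4 coding genes held this summit, so it cannot be assigned to TOE3 by position.

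TOE2, a repressor of flowering that acts together with TOE1, likewise had a single shared peak, placed in a neighbouring gene. It covered 24213211 to 24213949 of chromosome 5 in replicate 1 and reached 6.47-fold (5.31 to 7.82, from 105 tags) in the first replicate, and 6.96-fold (5.71 to 8.40, from 106 tags) in the second. The summits were 1615 and 1618 bp past the higher-coordinate end of TOE2 and inside AT5G60130. AT5G60140 lay 507 bp from the replicate 1 summit, and 4 coding genes had it in their windows. The peak was wide, with 739 and 730 bp against a median of 311 and 310 bp over the lists. On the opposite side of TOE2, 2335 bp off, replicate 1 alone had a peak of 2.49-fold (1.76 to 3.45).

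TOE1, a flowering repressor named as a target of an activation-tagged MIR172 gene, had moderate binding at its lower-coordinate end and weak binding within the gene. The stronger shared peak covered 12225217 to 12225925 of chromosome 2 in replicate 1, with summits 245 and 242 bp outside the gene. It reached 4.76-fold (3.70 to 6.03, from 66 tags) in the first replicate, and 5.29-fold (4.14 to 6.68, from 69 tags) in the second. At 709 and 669 bp it was at least as wide as 97.1% and 96.5% of the nuclear peaks of each list. Inside TOE1, a shared peak of 1.86-fold (1.23 to 2.70, 25 tags) and 1.75-fold (1.13 to 2.60, 22 tags) had −log10 q values of 0.998 and 0.728, and so a q above 0.05 in both replicates. It ranked at percentile 1.38 of all shared peaks. Replicate 1 alone had a peak 375 bp past the higher-coordinate end, at 2.06-fold (1.42 to 2.91).

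AP2, the founding member and a floral organ identity gene, had the lowest maximum of the 6 within 3000 bp, and it was the only one whose strongest peak there stood in the middle of the gene. With 5000 bp on either side its maximum was 9.37-fold, above that of TOE2 (6.72-fold). The peak inside AP2 covered 17401821 to 17402173 of chromosome 4 in replicate 1. Its fold enrichment was 5.04 (3.95 to 6.35, from 70 tags) in the first replicate, and 4.92 (3.81 to 6.25, from 64 tags) in the second. The summits lay 1375 and 1386 bp from the lower-coordinate end of a gene of 2860 bp. The other shared peak, at 3.70-fold (2.78 to 4.83) and 3.94-fold (2.95 to 5.15), stood 1682 and 1684 bp off the lower-coordinate end. It was outside genes, and AP2 was the only coding gene with it in its window.

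**Figure D2:**
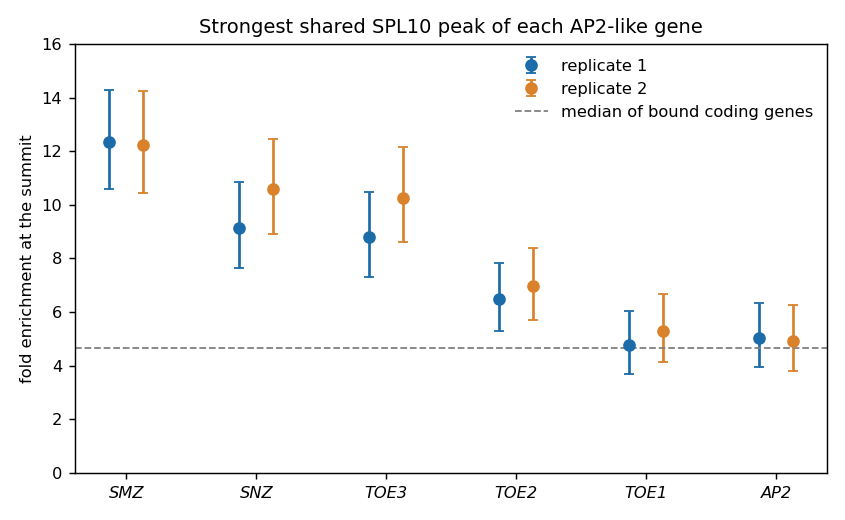
Fold enrichment (y, ratio) of the strongest shared SPL10 peak in the window of each AP2-like gene (x), with replicate 1 in blue and replicate 2 in orange. Bars are 95% exact Poisson counting intervals and the dashed line is the median over all bound coding genes, 4.67-fold; SMZ, SNZ and TOE3 lie above it with their whole intervals in both replicates, as does TOE2.

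By the strongest shared peak within 3000 bp, with the mean of both replicates, the genes ranked SMZ (12.3-fold), SNZ (9.86-fold), TOE3 (9.53-fold), TOE2 (6.72-fold), TOE1 (5.03-fold) and AP2 (4.98-fold). Neighbours in this order had overlapping counting intervals in both replicates, except TOE3 and TOE2, whose intervals overlapped in replicate 1 only. Intervals of SMZ, SNZ and TOE3 did not overlap those of TOE1 and AP2 in either replicate. The upper 3 genes and the lower pair thus differed by more than counting error. Within the upper 3, the intervals of SMZ and TOE3 overlapped in replicate 2 but not in replicate 1, and TOE1 and AP2 could not be ordered. The ranking holds for this window only. With 5000 bp on either side, TOE1 came first at 19.98-fold, and AP2, at 9.37-fold, stood above TOE2 and below SMZ, SNZ and TOE3. No test was made between genes, since only counting error is known.

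**Figure D3:**
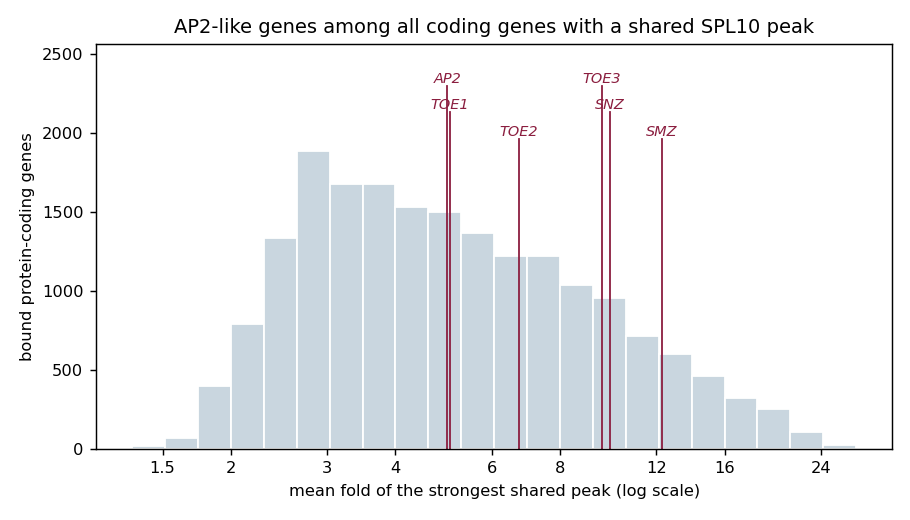
Number of protein-coding genes (y) by mean fold of their strongest shared SPL10 peak (x, log scale), over the 19135 coding genes with a shared peak in the gene or within 3000 bp. Vertical lines mark the 6 AP2-like genes; AP2 and TOE1 stand near the middle of the distribution, SMZ, SNZ and TOE3 on its right side.

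Against all 19135 bound coding genes, the strongest peaks of the 6 genes had a median of 8.12-fold, where bound coding genes had a median of 4.67-fold. A shared peak at least as strong as their own maximum was found for 10.6% of coding genes in the case of SNZ, 11.5% for TOE3, 21.9% for TOE2, 31.9% for TOE1 and 32.4% for AP2. Of the 10 shared peaks, 8 were above 3.77-fold, the median of all shared peaks. The combined windows of 53498 bp held 187 shared summits per Mb, against 139.8 per Mb over the windows of all coding genes. In AP2, TOE1 and SNZ, 3 of 6 genes, at least 2 shared peaks were found, against 32.9% of coding genes. TOE1 is counted here only through its internal peak, which had a q above 0.05 in both replicates. These figures describe 6 genes that were selected with earlier results known, and nothing particular to them is drawn from the comparison.

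The replicates gave closely similar positions and heights at these genes. Summits of the 10 shared peaks were 1 to 66 bp apart, with a median of 4 bp. The ratio of replicate 2 to replicate 1 fold ran between 0.850 for the SNZ peak next to AT2G39260 and 1.17 for the TOE3 peak. Replicate 2 was higher at 5 peaks and replicate 1 at 5. None of the 10 differed in recovered tags with an adjusted p under 0.05 (exact binomial test, two-sided, Benjamini-Hochberg over 16697 shared peaks), and 0 had an unadjusted p under 0.05, the lowest being 0.237 at TOE3 by the exact binomial test. Over all shared peaks, 0.00599% were called by the adjusted test and 1.29% had an unadjusted p under 0.05. The latter share is below the nominal level of 0.05, so paired peaks agreed more closely than the counting model assumes. The test was thus conservative here, and the reason was not tested. With shares this low over all shared peaks, the absence of calls is not particular to these 10. Only peaks paired by reciprocal overlap enter this comparison, which favours close summits, and peaks called in a single replicate do not. The caller's local background was at the genome-wide level in both replicates for 7 of the 10 peaks, and at most 1.18 times that level for the others, which are those of TOE2 and the SNZ pair near AT2G39260.

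With respect to the genes themselves, shared summits fell on either side and within. Of the 10, 3 were inside an AP2-like gene (AP2, TOE1 and SNZ), 3 on the lower-coordinate side and 4 on the higher-coordinate side. An AP2-like gene was the nearest coding gene for 6 of the 10 summits, at AP2, TOE1, SMZ and SNZ. The median number of coding genes with a shared summit in their window was 2, for these 10 and for shared summits in general. No matching share over all shared summits is given for these counts, so they are descriptions only. When each summit was given only to its nearest coding gene, a rule added after the data were seen, 4 of 6 genes kept a shared peak, against 40.3% of coding genes, and TOE2 and TOE3 had none. Within the genes alone, 3 of 6 had a shared summit, against 26.6%. That of TOE1 was the peak with a q above 0.05 in both replicates. The gene table used has no strand, so upstream and downstream sides were not told apart.

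The limit of 3000 bp left out the strongest peak found within 6000 bp of any of the 6 genes. The farthest shared summit inside the limit was that of AP2 at 1682 and 1684 bp. Just outside, TOE1 had a shared peak 3453 and 3446 bp past its higher-coordinate end, covering 12231846 to 12232280 of chromosome 2 in replicate 1, with 20.1-fold (283 tags) in replicate 1 and 19.9-fold (262 tags) in replicate 2. It stood outside genes, at percentile 99.3 of all shared peaks, and TOE1 was its nearest coding gene, with RAD51B 3798 bp away on the other side. No interval is given for it, because intervals were limited to counts of at most 198 tags. That limit was set to the width in bp of the narrowest peak. The highest tag number found was 396 in each replicate. Whether this marks a ceiling that lowers the strongest folds was not tested. AP2 had shared peaks just outside the limit at 3194 and 3199 bp (2.92-fold and 2.65-fold) and at 3079 and 3094 bp on the opposite side (2.49-fold and 2.65-fold). A stronger one of 9.15-fold and 9.59-fold lay 4928 and 4922 bp off AP2, inside the noncoding gene AT4G09415. TOE2 and TOE3 had only peaks of a single replicate just outside the limit, at 1.72-fold for TOE2 (3443 bp off, replicate 1) and 2.20-fold for TOE3 (3213 bp off, replicate 2). TOE3 had a further one of 1.79-fold at 3942 bp in replicate 1. SNZ had a shared peak of 3.56-fold and 3.86-fold at 4668 and 4709 bp off its lower-coordinate end.

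Other genes of the route were read by the same window. Among the MIR172 genes, which produce the microRNA that acts on the 6, 4 of 5 had a shared peak, against 63.2% of microRNA genes. MIR172B led with 15.9-fold in each replicate at 2630 bp from the gene, 714 bp from the coding gene AT5G04270. MIR172C had 7.45-fold (6.10 to 9.005) and 7.18-fold (5.82 to 8.77) at 287 bp, and MIR172D had 5.82-fold (4.64 to 7.21) and 7.18-fold (5.82 to 8.77) at 2026 bp, nearer to the coding gene AT3G55513. MIR172A had none, and it is named here after its value was seen. The strongest peaks of the bound MIR172 genes thus ran from 2.73-fold to 15.9-fold, which spans the whole range of the AP2-like genes.

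The ANT/PLT and WRI genes, which encode related AP2-domain proteins but are not targets of miR172, had a shared peak in 8 of 11 cases, or 72.7%, close to the 69.7% of coding genes. The strongest peaks of the AP2-like genes had a median of 8.12-fold, against 5.10-fold for the ANT/PLT and WRI genes and 4.67-fold for bound coding genes. AIL5, a regulator of germination and growth, stood apart with 20.6-fold and 22.3-fold, at a summit 2536 bp off that was nearer to VIN3 (949 bp). The next were WRI3 (ADAP in RefSeq), with 5.32-fold and 7.41-fold, and AIL6, with 5.82-fold and 6.12-fold, both inside the gene. The WRI3 summit also lay inside TLP8, which overlaps it.

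Flowering genes that act with or after the AP2-like repressors had a shared peak in 10 of 11 cases, against 69.7% of coding genes, with a median strongest peak of 10.7-fold. FUL, SOC1 and AP1, which promote flowering or floral identity, led at means of 25.9-fold, 20.1-fold and 13.2-fold. FT, the florigen gene on which SMZ and the TOE proteins act, had no shared peak in its window, and is named here after its value was seen. These lists were assembled with earlier results of the same data known, so their counts are descriptions.

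**Figure D4:**
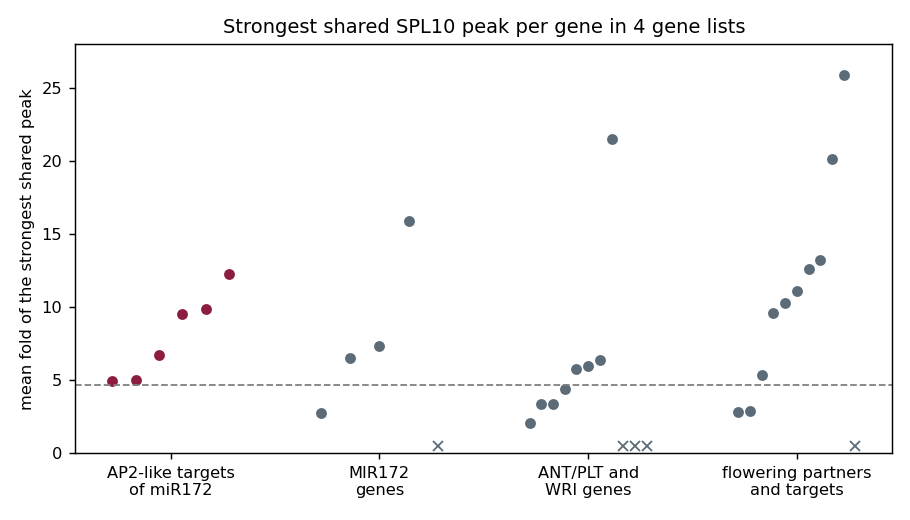
Mean fold of the strongest shared SPL10 peak (y, ratio) per gene in 4 gene lists (x), 1 point a gene, ordered by value within each list; crosses at the bottom mark genes without a shared peak, and the dashed line is the median of bound coding genes, 4.67-fold. The 6 AP2-like genes (dark red) run from 4.98-fold to 12.3-fold with no gene at the bottom, while the other lists reach both lower and higher.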

How the data were processed

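Peak lists of 2 SPL10 DAP-seq samples were used, each called per replicate. Per the submitters' processing notes, reads were handled with cutadapt and placed on TAIR10. Peak names name MACS, per the file contents, but neither a version nor a cutoff nor the library used as control is stated in these sources. The deposited lists give fold (a ratio to the caller's background), −log10 p, −log10 q and a score, which is 10 times the −log10 q as deposited. Of the peaks, 10.8% and 7.99% had a q above 0.05.

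Tags were recovered from fold and −log10 p, which matched for 100% of p-values within a tolerance of 1e-04. On simulated lists, the tags of 100% and 99.95% of 2000 summits were returned for replicates 1 and 2. Those lists were built by the formula that the recovery inverts, so they cannot show that the caller used it. In a separate simulation of independent Poisson counts, the exact binomial test called 96.5% of 200 peaks changed 3-fold. Smaller changes were not simulated, so it does not show whether differences of the size seen between the replicates would be called. The genome-wide background was 10.2 scaled tags. Genes came from a RefSeq table of TAIR10.1, used for names and distances. It has no strand, and no genome sequence was used here, so planned motif and sequence work was not done. The input log was not used.

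Named genes were all 6 members and at most 3 genes per list with the highest mean fold. MIR172A and FT, which had no shared peak, were named in addition, after their values were seen. The members and lists were chosen with earlier results of these data known. Alternatives covered window size, peak threshold, overlap rule and each replicate alone. Python 3.11.15, SciPy 1.17.1 and pandas 2.3.3 were used.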

Additional observations from a re-analysis of the deposited data

How the results depend on the processing

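The count of genes with a shared peak was 6 of 6 with windows of 2000 bp or 5000 bp, with flanks alone, with −log10 q of at least 10, with any overlap, with summits within 100 bp and with either replicate alone. It was 4 with windows of 1000 bp, with the 5000 strongest peaks and with the nearest coding gene only (chosen after seeing the data), and 3 with the gene body alone. Shared peaks over the 6 genes numbered 6 with 1000 bp, 3 with the gene body alone, 4 with the 5000 strongest peaks and 6 with the nearest coding gene only. Without one of the replicates, the number of peaks ran from 10 to 13. Of coding genes, 59.9% had a shared peak with 2000 bp, 83.1% with 5000 bp and 59.0% with flanks alone. With any overlap 71.5% of them had one, and with summits within 100 bp 70.0%. The share of coding genes with a peak was 45.9%, 26.6%, 44.3%, 26.1% and 40.3% with 1000 bp, the gene body alone, −log10 q of at least 10, the 5000 strongest peaks and the nearest coding gene only, and 78.8% to 79.2% with a single replicate.

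The strongest peak depended on the window for AP2, TOE1 and SNZ. With 5000 bp it was 9.37-fold for AP2 and 19.98-fold for TOE1, which put TOE1 first of the 6 and AP2 above TOE2. With flanks alone it was 3.82-fold for AP2 and 4.53-fold for SNZ, and with the gene body alone 1.80-fold for TOE1. Each of these follows from which summits the window holds. For SMZ, TOE2 and TOE3 it stayed within the counting interval wherever a peak was left. TOE2 and TOE3 had none with 1000 bp or the nearest coding gene only, SMZ, TOE2 and TOE3 none in the gene body, and TOE1 and AP2 none among the 5000 strongest. Counting intervals of the replicates overlapped at all 10 shared peaks. No paired analysis was possible because the only groups are SPL10 and 1 input. Depth limits the weakest peaks, which rest on 22 to 36 tags.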
